A study of Mus musculus with 6 samples.

Results

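Interferon-stimulated genes are the genes that cells switch on when interferons bind their receptors, and 39 of them were followed here in mouse melanoma. They were chosen by symbol, from the regulators, sensors and antiviral proteins commonly used to read out the response, and all 39 were found among the 23940 gene symbols of the deposited table. The samples were CD45- cells sorted from YUMM1.7 tumours grown in C57BL/6 mice. YUMM1.7 is a mouse melanoma line driven by mutant Braf, and CD45, the product of Ptprc, is carried by leukocytes. Sorting for its absence keeps tumour cells together with fibroblasts and vessel cells. One group was 3 tumours taken before any MAPK pathway inhibitor, called pre-treatment. The other was 3 residual tumours taken on a BRAF inhibitor (BRAFi), called on-BRAFi. The labels do not name the inhibitor, its dose or the time on it, or the age of the mice, nor say if any mouse gave more than 1 of the tumours. The p-values below measure the spread between these tumours.

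Type I interferons signal through the kinases JAK1 and TYK2 to a transcription factor complex, which includes STAT2 and IRF9 and binds the interferon-stimulated response element (ISRE). Type II interferon signals through JAK1 and JAK2 to the gamma-activated site (GAS). The genes switched on include sensors of viral RNA, proteins that block viral replication, large GTPases that attack pathogen vacuoles, and the transcription factors IRF1 and IRF7, which extend the response. In tumours, malignant cells, fibroblasts and vessel cells can all express them.

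The DNA in front of a few members is shown, since the response acts through it: Irf1, the member with the most stable difference between the groups, Ifit1 and Isg15, which represent the antiviral effectors, Igtp and Gbp7, which represent the GTPases, and Ifitm3. Sequences are from RefSeq on GRCm38.p6, 5′ to 3′ on the gene's strand, and capitals mark the motif matches. Each stretch is the 150 bases before the annotated start, except that of Ifitm3, which is the 27 bases that hold its matches, just after the start.
Irf1 (chr11:53769864-53770013, plus strand): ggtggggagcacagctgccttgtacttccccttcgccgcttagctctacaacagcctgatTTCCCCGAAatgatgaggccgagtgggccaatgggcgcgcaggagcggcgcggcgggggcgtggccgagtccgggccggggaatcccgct
Ifit1 (chr19:34640739-34640888, plus strand): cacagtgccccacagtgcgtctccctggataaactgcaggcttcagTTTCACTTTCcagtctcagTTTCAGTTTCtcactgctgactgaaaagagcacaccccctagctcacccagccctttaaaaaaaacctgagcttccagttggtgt
Isg15 (chr4:156200819-156200968, minus strand): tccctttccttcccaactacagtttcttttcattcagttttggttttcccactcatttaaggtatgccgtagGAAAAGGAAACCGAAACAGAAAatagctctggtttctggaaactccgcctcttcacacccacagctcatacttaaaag
Igtp (chr11:58199406-58199555, plus strand): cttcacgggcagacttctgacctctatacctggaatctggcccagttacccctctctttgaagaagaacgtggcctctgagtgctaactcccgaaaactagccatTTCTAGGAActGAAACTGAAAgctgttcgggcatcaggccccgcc
Gbp7 (chr3:142530186-142530335, plus strand): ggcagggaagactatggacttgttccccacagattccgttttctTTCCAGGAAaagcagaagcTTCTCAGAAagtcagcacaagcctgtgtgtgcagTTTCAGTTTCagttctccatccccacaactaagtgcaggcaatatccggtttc
Ifitm3 (chr7:141010716-141010742, minus strand): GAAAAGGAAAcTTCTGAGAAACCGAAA

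The ISRE was searched as GAAA, 2 bases of any kind and GAAA again, on both strands, and the GAS as TTCNNNGAA, which reads the same on both strands, in windows from 250 bases before to 50 bases after each start. Windows were at hand for 30 of the 39 members, 34 windows in all. An ISRE match was in 17 of these 34 windows (50%), against 3.44% of all 32851 windows in the table. A GAS match was in 9 windows (26.5%), against 8.3% of all windows. By gene, 17 of the 30 members had an ISRE match, 9 a GAS match, 6 of them both, and 10 neither. Ifit1 and Isg15 held ISRE matches only, with 3 overlapping ones in Isg15. Igtp and Gbp7 held both kinds of match. Irf1 held a single GAS match, 90 bases upstream of its start, and no ISRE match. In Ifitm3 the GAS match overlapped the second of its 2 ISRE matches, and the Irf7 window held neither motif. These matches are letters in a window and were not measured in these cells.

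At the deposited scaling, 3 of the 37 members tested fell on the inhibitor, none rose and 34 did not pass. The members that fell were Irf1, Ifitm3 and Irf7, which encode transcription factors of the response (Irf1, Irf7) and a membrane protein that blocks virus entry (Ifitm3). The test was limma's moderated test on log2(FPKM + 0.1) over 12075 genes, with Benjamini-Hochberg adjustment and a threshold of 0.05. Of all genes tested, 10.3% fell and 8.76% rose, so the members' share of 8.11% that fell is near the background. Without adjustment, 9 members had p under 0.05, all of them lower, and over all genes tested 34.2% had such a p and 17.6% had it with a lower level. The median log2 fold change of the members was 0.06, against -0.01 over all genes tested. Their median absolute log2 fold change was 0.29, against 0.55 over all genes tested. The members were also higher in level, with a median mean of 16.5 FPKM against 8.29 FPKM over all genes tested. Their median SE was smaller, at 0.24 against 0.30. The part of level and spread in the smaller changes was not tested. The on-BRAFi values all lay below the pre-treatment values in 8 of the 37 tested members, and all above them in none. Over all genes tested these shares were 19.5% and 20.9%, or 40.4% in either direction. In bulk samples, fewer cells of a type and less RNA per cell cannot be told apart.

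**Figure D1:**
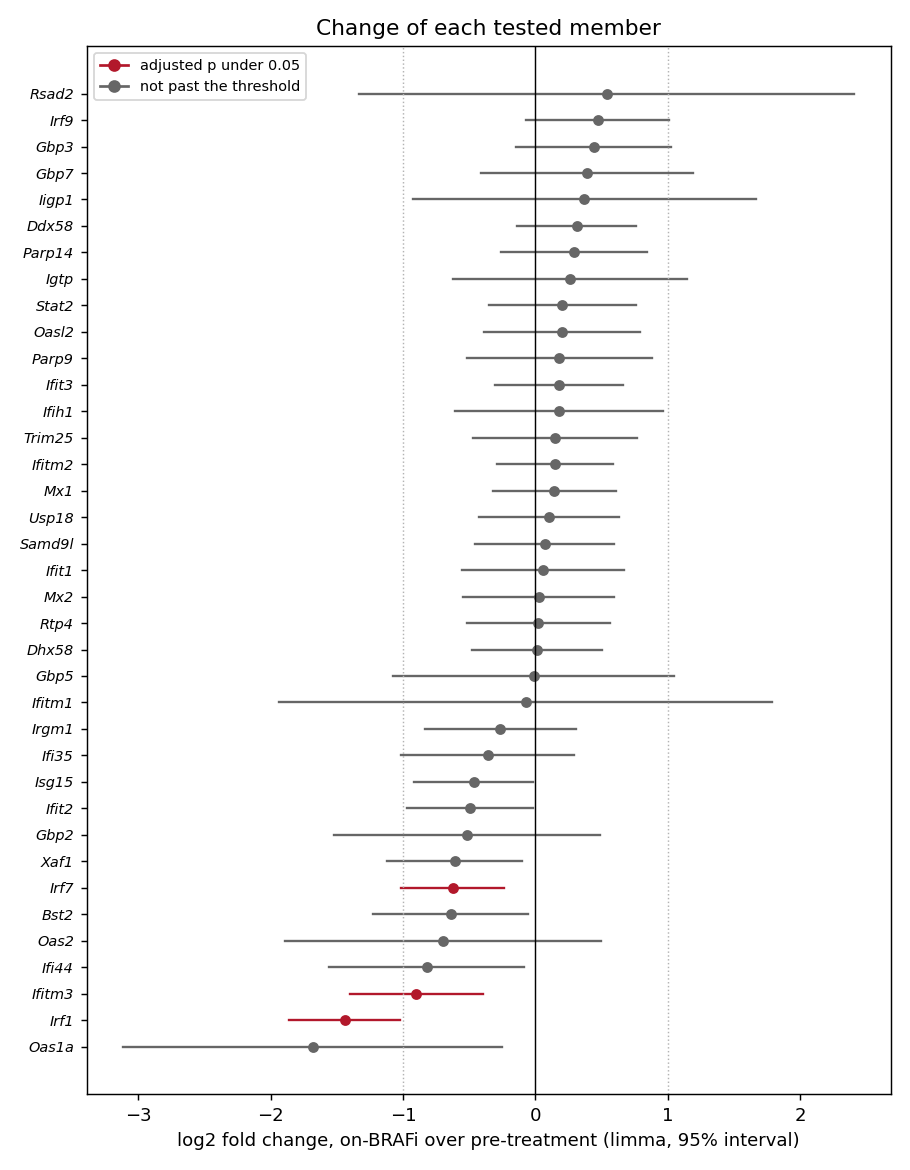
Log2 fold change on the log2(FPKM + 0.1) scale, on-BRAFi over pre-treatment, of the 37 tested members (points), with limma's 95% intervals (bars, n = 3 tumours per group); dotted lines mark a log2 change of -1 and 1. The 3 red members fell (adjusted p under 0.05), Irf1 by 1.44, Ifitm3 by 0.90 and Irf7 by 0.62, and the other 34 did not pass.

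For 19 of the 34 members that did not pass, the 95% interval lay within a log2 change of -1 to 1, so a 2-fold change either way lay outside it. The interval reached -1 or 1 for the other 15, among them Rsad2, Ifitm1 and Oas1a. These intervals are at the deposited scaling. Setting each library to an equal total FPKM raised the median of all genes by 0.54 and that of the members to 0.60. With short RNAs left out of that total the members' median was 0.65 and 5 members rose, so each direction here is relative to the deposited scaling.

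Several facts of the libraries bear on these values. Total FPKM ran from 414834 to 921297, and a library had from 11074 to 11740 genes at 1 FPKM or more. The read depth is unknown, since the table holds no counts. Ptprc was at 0.609 to 2.18 FPKM before treatment and at 0.118 to 1.10 FPKM on the inhibitor, so leukocyte RNA was low but not absent. The summed level of 6 leukocyte markers was 10.1 to 14.2 FPKM before treatment and 3.29 to 7.15 FPKM on the inhibitor, and none of the 5 tested passed. The 6 macrophage markers had a sum of 26.6 to 30.7 FPKM before treatment and of 19.3 to 40.1 FPKM on the inhibitor, and none of the 4 tested passed. The summed B cell markers were at 1.42 ± 1.09 and 2.34 ± 0.966 FPKM (SD, n = 3), with Ms4a1 listed at 0 in all libraries. All 6 endothelial markers and 5 of 6 fibroblast markers rose, the summed fibroblast level from a range of 804 to 1259 FPKM to one of 7759 to 8266 FPKM, and the endothelial one from 15.3 to 24.1 FPKM to 60.1 to 103.5 FPKM. The part of this shift in the values of the members was not tested. Of the melanocyte markers Mlana and Dct were listed at 0 in all libraries and Sox10 and Pmel were at most 0.114 and 0.738 FPKM. Tyr was at 3.02 to 5.99 FPKM over the 6 libraries and did not pass, and Mitf rose from 5.77 ± 1.40 to 21.5 ± 2.16 FPKM (SD, n = 3 each).

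Among the regulators, Irf1 was high before treatment and fell. Irf1, a transcription factor induced by interferon gamma and by NF-kB signalling, was at 148, 127 and 145 FPKM in pre-treatment tumours 1, 2 and 3. On the inhibitor it was at 47.4, 61.5 and 46.3 FPKM. The groups did not overlap. The fall was 2.71-fold, a log2 fold change of -1.44 ± 0.18 (SE; limma, adjusted p = 0.00322). It passed in each of the 6 fits that left out a tumour (limma, adjusted p up to 0.0198). It passed in all 17 alternative fits, and its highest adjusted p, 0.0442 (limma), came with an equal total per library. With an equal total per library, short RNAs left out of it, the log2 change was -0.84, the smallest of these fits.

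Irf7, which amplifies type I interferon production, was at 15.9, 15.4 and 17.4 FPKM before treatment and at 11.2, 10.6 and 9.73 FPKM on the inhibitor. The values were tight and did not overlap. The fall was 1.54-fold (log2 -0.62 ± 0.16 SE; limma, adjusted p = 0.0402). It passed in 5 of 17 alternatives and missed the threshold whichever tumour was left out (limma, adjusted p up to 0.110). With every library set to an equal total its log2 change was -0.08.

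The other 3 regulators did not pass. Irf9, shown by tumour after its values were seen, the DNA-binding part of the type I complex, was at 16.9, 14.3 and 23.2 FPKM before treatment and at 27.3, 25.9 and 21.3 FPKM on the inhibitor (log2 0.47, limma, adjusted p = 0.195). Its highest pre-treatment value lay above its lowest treated value. Stat2, the partner of IRF9, had means of 10.3 ± 2.38 and 11.8 ± 1.86 FPKM. Usp18, which removes ISG15 from proteins and restrains the type I receptor, had means of 11.5 ± 0.682 and 12.6 ± 3.25 FPKM (SD, n = 3).

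A ratio of genes within a library does not depend on scaling between libraries. The pairs below were chosen after their values were seen, so their ratios are a description with no test. The ratio of Irf1 to Irf9 was 8.73, 8.88 and 6.23 before treatment and 1.74, 2.38 and 2.18 on the inhibitor. The ratio of Irf7 to Irf9 was 0.922 ± 0.165 before treatment and 0.425 ± 0.0282 on the inhibitor (SD, n = 3). Neither pair of ranges overlapped.

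**Figure D2:**
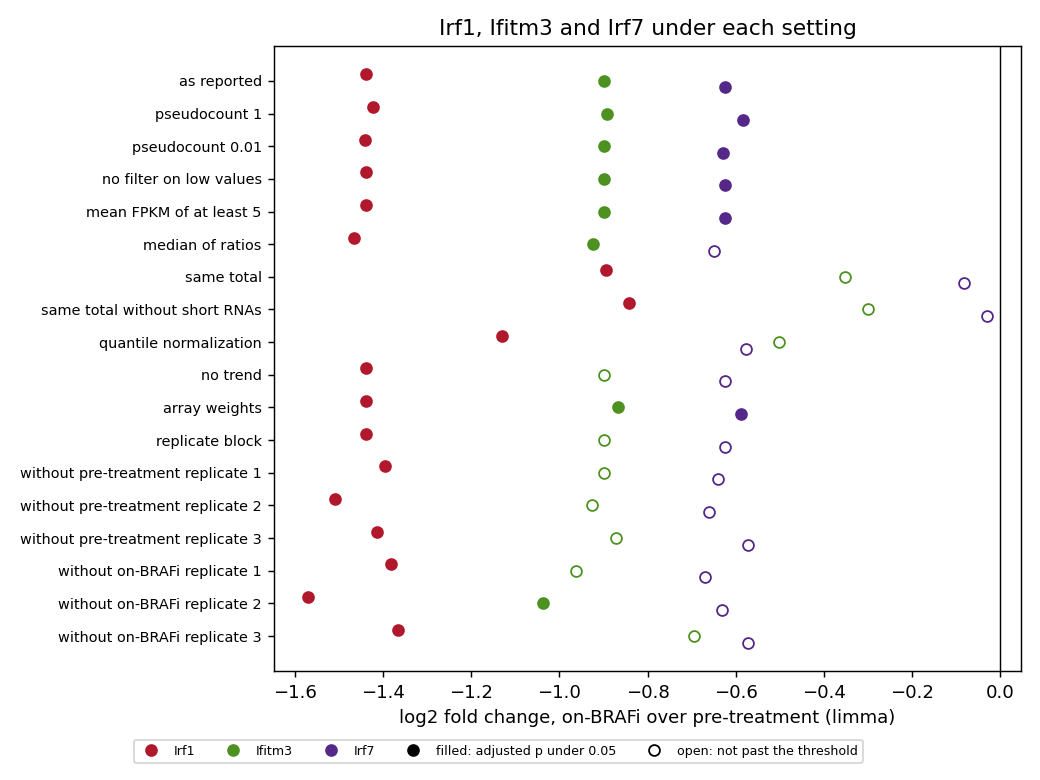
Log2 fold change (on-BRAFi over pre-treatment) of Irf1, Ifitm3 and Irf7 as reported and under each of 17 alternatives, from limma; filled points had an adjusted p under 0.05. Irf1 is filled in every line, from -1.57 to -0.84, whereas Ifitm3 is filled in 7 and Irf7 in 5 of the alternatives.

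None of the 3 RNA sensors passed. Ddx58, which encodes the viral RNA sensor RIG-I, was at 16.6, 17.4 and 23.1 FPKM before treatment and at 25.2, 22.2 and 23.0 FPKM on the inhibitor. The groups overlapped through pre-treatment tumour 3 (log2 0.31, limma, adjusted p = 0.290). Ifih1, which encodes the sensor MDA5, had means of 9.02 ± 2.91 and 10.3 ± 3.53 FPKM. Dhx58, which encodes their relative LGP2, had means of 4.03 ± 0.343 and 4.06 ± 0.229 FPKM (SD, n = 3), with a 95% interval of its log2 change from -0.48 to 0.51.

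Of the 13 antiviral effectors 11 were tested and none passed, with log2 fold changes from -1.68 to 0.54 and a median of 0.06. Ifit1, which binds viral RNA that lacks a host cap and had the highest mean of these genes, was at 41.8, 55.6 and 56.2 FPKM before treatment and at 74.2, 41.9 and 47.2 FPKM on the inhibitor. The ranges overlapped (log2 0.06, 95% interval from -0.56 to 0.67). Ifit3, a partner of Ifit1, had means of 45.9 ± 10.1 and 51.3 ± 4.73 FPKM. Samd9l, an antiviral restriction factor, had means of 38.6 ± 9.86 and 39.9 ± 3.64 FPKM (SD, n = 3). Mx1 and Mx2, genes of the dynamin-like GTPase family, had means of 8.75 ± 1.35 and 9.64 ± 0.955 FPKM for Mx1 and of 6.99 ± 1.82 and 6.96 ± 0.206 FPKM for Mx2.

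Isg15, a ubiquitin-like modifier, was at 39.2, 44.0 and 51.8 FPKM before treatment and at 34.6, 35.7 and 27.3 FPKM on the inhibitor. Ifit2, a relative of Ifit1, was at 21.2, 24.9 and 24.6 FPKM and then at 13.8, 20.4 and 16.4 FPKM. In both genes every treated value lay below every untreated one, but neither passed (log2 -0.47 and -0.50, limma, adjusted p = 0.133 for each). With an equal total per library their log2 changes were 0.078 and 0.048.

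The oligoadenylate synthetase Oas1a, whose product activates RNase L, was low, at 3.61, 1.86 and 2.63 FPKM before treatment and at 1.79, 0.501 and 0.427 FPKM on the inhibitor. The groups did not overlap, but Oas1a did not pass (log2 -1.68 ± 0.60 SE; limma, adjusted p = 0.0998). Oas2, of the same family, was at 2.03, 2.34 and 4.77 FPKM and then at 2.02, 0.929 and 2.62 FPKM, with ranges that overlapped (log2 -0.70, limma, adjusted p = 0.373). Oasl2, a related protein, had means of 17.4 ± 3.41 and 20.2 ± 5.18 FPKM (SD, n = 3).

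Rsad2, which encodes viperin, an enzyme that makes a chain-terminating nucleotide, varied most of the members among the treated tumours, and is shown by tumour for that reason, after its values were seen. It was at 3.67, 4.61 and 5.53 FPKM before treatment and at 17.9, 9.48 and 1.68 FPKM on the inhibitor, a 10.6-fold range in the treated group. On-BRAFi tumour 3 lay below all untreated tumours and the other 2 treated tumours above them (log2 0.54, limma, adjusted p = 0.659). Without on-BRAFi tumour 3 the log2 change was 1.498 (limma, adjusted p = 0.0450), and without on-BRAFi tumour 1 it was -0.17. Oasl1, of the oligoadenylate synthetase-like family, and Cmpk2, a mitochondrial nucleotide kinase, lay under the filter of a mean of 1 FPKM and were not tested. Oasl1 was between 0.394 and 1.14 FPKM and Cmpk2 between 0.422 and 0.992 FPKM over the 6 libraries.

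**Figure D3:**
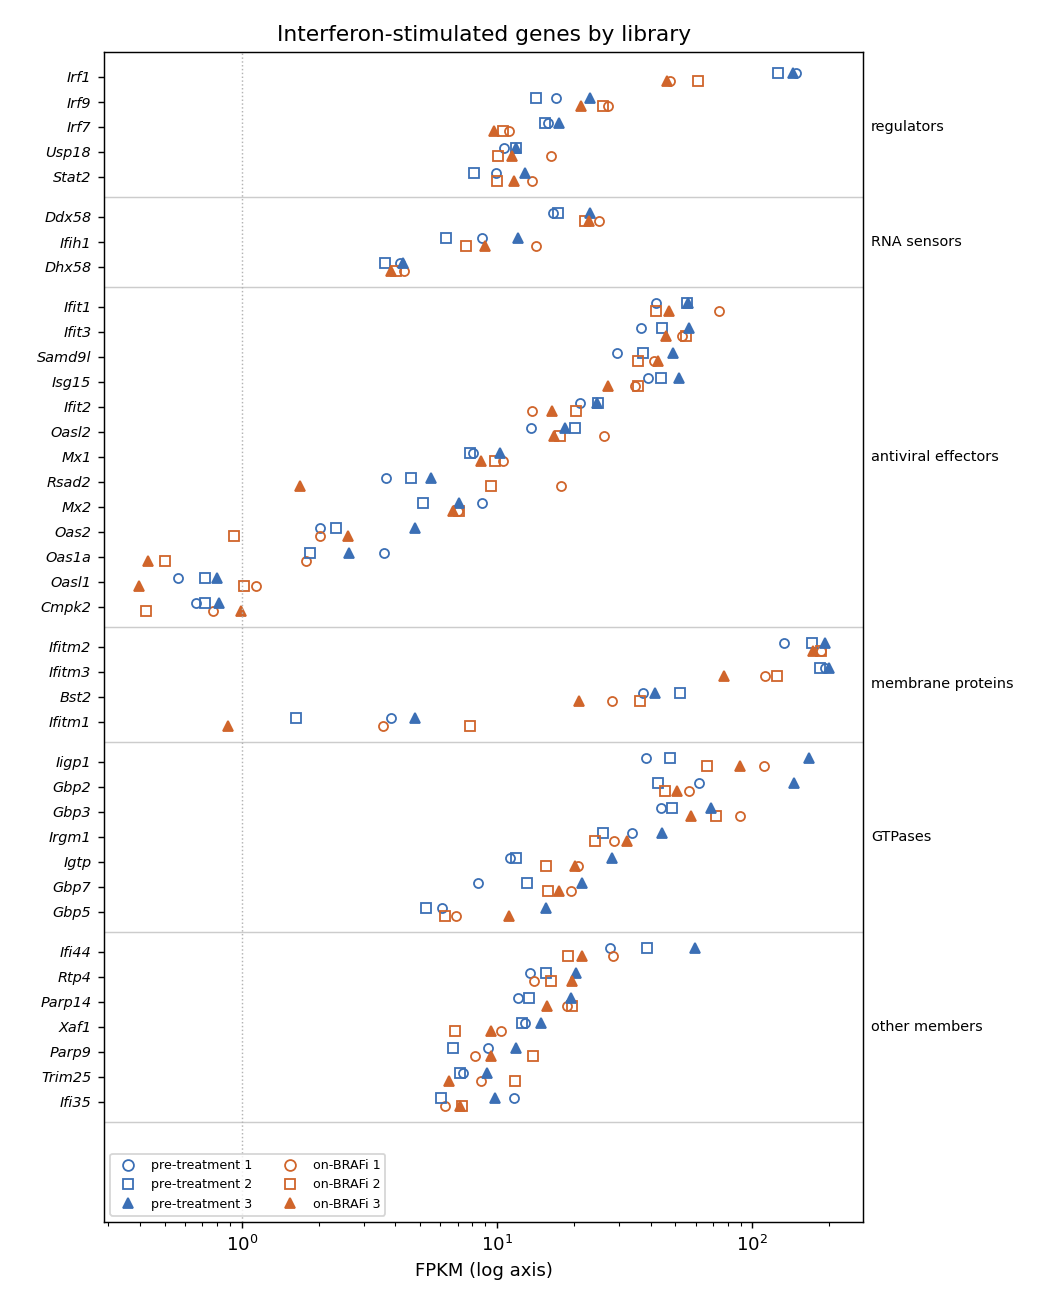
FPKM (log axis) of all 39 members in each of the 6 libraries, grouped by role and ordered by mean within a role; blue symbols are pre-treatment and orange symbols on-BRAFi tumours, with the third tumour of each group filled. In 8 of the 39 members, Irf1 and Ifitm3 among them, the groups do not overlap, against 40.4% of all genes tested. In the other 31 they overlap, and pre-treatment tumour 3 is the highest untreated value of all 7 GTPases.

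Of the 4 membrane proteins 1 fell and 3 did not pass. Ifitm2 and Ifitm3 are close relatives that hinder viral fusion in endosomes, and Ifitm2 had the highest mean of all 39 members. Ifitm3 was at 192, 185 and 199 FPKM before treatment and at 113, 125 and 77.5 FPKM on the inhibitor. The groups did not overlap, and the fall was 1.86-fold (log2 -0.90 ± 0.21 SE; limma, adjusted p = 0.0276). Ifitm2 was at 133, 172 and 192 FPKM and then at 186, 185 and 173 FPKM, with ranges that overlapped (log2 0.15, limma, adjusted p = 0.602). The Ifitm3 call was lost without any 1 of the tumours other than on-BRAFi tumour 2 (limma, adjusted p up to 0.0739) and with an equal total per library (log2 -0.35).

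The ratio of Ifitm3 to Ifitm2, a pair also chosen after its values were seen and given with no test, was 1.44, 1.08 and 1.04 before treatment and 0.604, 0.674 and 0.448 on the inhibitor. Ifitm3 was the higher of the pair in all untreated tumours and the lower in all treated ones. The files do not say how reads shared by such similar genes were assigned, so levels within this family, and within the Ifit, Oas and Gbp families, are uncertain to that extent.

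Bst2, which encodes tetherin, was at 37.4, 51.9 and 41.6 FPKM before treatment and at 28.1, 36.2 and 21.0 FPKM on the inhibitor. It did not pass, although every treated value was lower (log2 -0.64, limma, adjusted p = 0.119). With array weights, which give each library its own weight, it fell just past the threshold (log2 -0.75, limma, adjusted p = 0.05), and with an equal total per library its log2 change was -0.094. In mice Bst2 also marks plasmacytoid dendritic cells. Of the 4 other markers of those cells that were listed, Ly6d was at 0 in all libraries and Ccr9 was at 0.735 ± 0.367 and 0.646 ± 0.429 FPKM (SD, n = 3). Siglech was at 11.5 to 13.5 FPKM before treatment and at 5.93 to 11.8 FPKM on the inhibitor, and Tcf4, which other cells express too, at 74.9 to 81.8 FPKM and at 71.0 to 78.4 FPKM. Neither Siglech nor Tcf4 passed. Their part in the Bst2 values was not tested. Ifitm1 was low and scattered, from 1.63 to 4.76 FPKM and from 0.883 to 7.81 FPKM.

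The 7 GTPases, guanylate-binding proteins and immunity-related GTPases that target pathogen vacuoles and respond strongly to interferon gamma in mice, gave no call in the test, and 6 of their 7 intervals reached a 2-fold change. Their log2 fold changes ran from -0.52 to 0.44. Among the untreated tumours, the third stood apart from the other 2. Iigp1, the highest of them, was at 38.2, 47.7 and 167 FPKM before treatment and at 111, 66.5 and 89.7 FPKM on the inhibitor. Gbp2 was at 61.8, 42.8 and 145 FPKM and then at 56.4, 45.7 and 50.9 FPKM. Igtp was at 11.2, 11.8 and 28.3 FPKM and then at 20.7, 15.6 and 20.3 FPKM. In each of these genes pre-treatment tumour 3 was above all treated and untreated tumours; Gbp2 and Igtp are shown for this pattern, after their values were seen.

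Pre-treatment tumour 3 held the highest of the 3 untreated values for all 7 GTPases, and for 30 of the 37 tested members (81.1%), against 26.0% of all genes tested. The median ratio of its value to the mean of the other 2 untreated tumours was 2.46 over the GTPases, 1.24 over the 13 antiviral effectors and 0.912 over all genes tested. The summed level of the 7 GTPases was 203, 195 and 491 FPKM in the untreated tumours and 332, 246 and 279 FPKM in the treated ones. Ptprc was also highest in pre-treatment tumour 3, at 2.18 FPKM. The summed level of 6 T and NK cell markers was 2.54, 3.68 and 5.09 FPKM in untreated tumours 1, 2 and 3, with Klrb1c listed at 0 in all 3. Within that list Cd8a, Nkg7 and Gzmb were highest in tumour 3, at 0.508, 0.931 and 0.638 FPKM. Cd3e was highest in tumour 1, at 0.344 FPKM, and Cd3g in tumour 2, at 2.91 FPKM. The leukocyte sum was 10.1, 14.2 and 13.7 FPKM and the macrophage sum 30.7, 26.6 and 29.3 FPKM in the same order, neither of them highest in tumour 3. The part of such cells in these values was not tested.

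**Figure D4:**
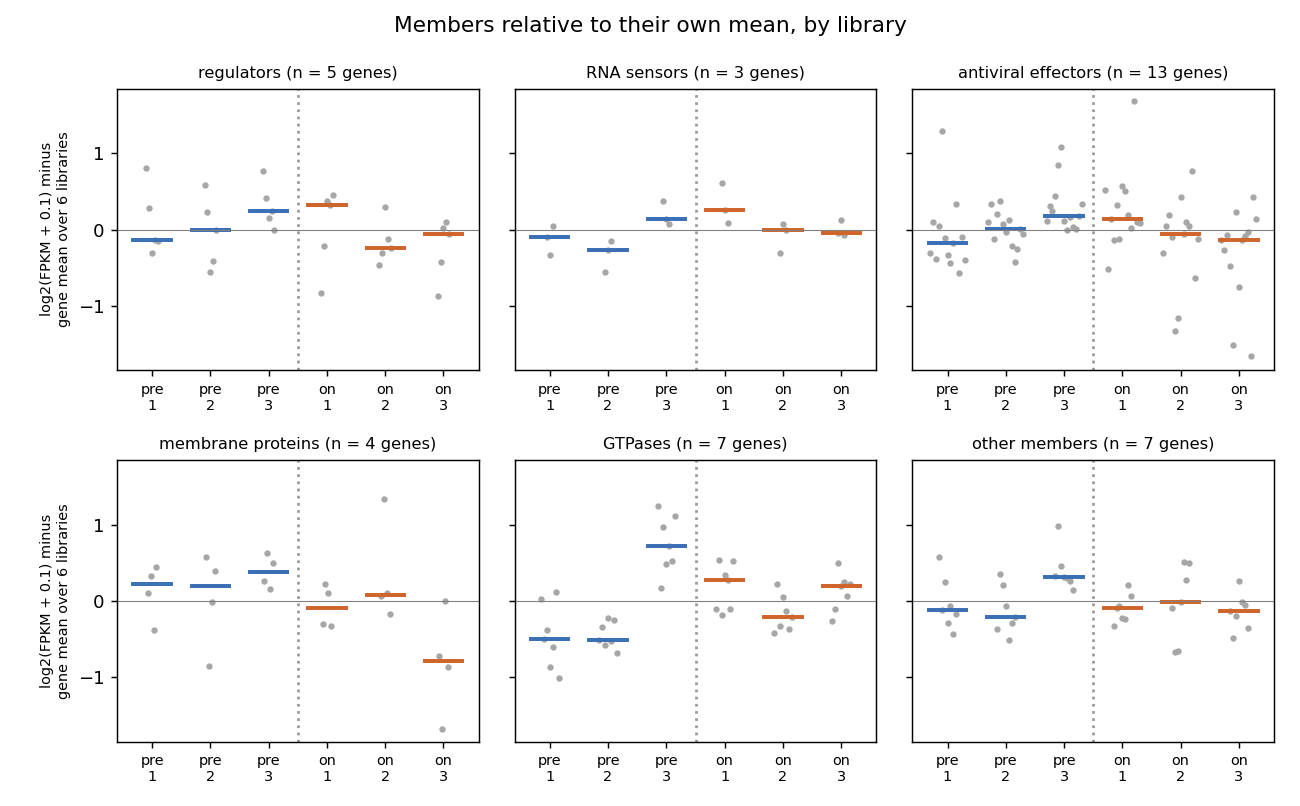
Each grey point is a member's log2(FPKM + 0.1) in a library minus its mean over the 6 libraries, with 1 panel per role, and coloured bars are the median over the genes of that role (blue pre-treatment, orange on-BRAFi). The GTPases stand high in pre-treatment tumour 3, where their median ratio to the other untreated tumours was 2.46.

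Without pre-treatment tumour 3, the log2 change of Iigp1 was 1.03, that of Gbp7 0.74 and that of Igtp 0.69, and none of the 7 GTPases passed. Gbp2, at -0.52 with all tumours, was at -0.02 without it. Gbp3, Gbp5, Gbp7 and Irgm1 had pre-treatment means of 53.8 ± 13.4, 8.95 ± 5.70, 14.4 ± 6.64 and 34.7 ± 9.27 FPKM. Their treated means were 72.9 ± 16.1, 8.12 ± 2.66, 17.6 ± 1.79 and 28.4 ± 4.17 FPKM (SD, n = 3).

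Of the 7 remaining members none passed. Ifi44, an interferon-induced cytoplasmic protein and the highest of them, was at 27.8, 38.6 and 59.8 FPKM before treatment and at 28.3, 18.9 and 21.6 FPKM on the inhibitor. The groups met at a single point, where treated tumour 1 lay just above untreated tumour 1 (log2 -0.82, limma, adjusted p = 0.114). Xaf1, a pro-apoptotic partner of the inhibitor of apoptosis XIAP, was at 12.9, 12.6 and 14.9 FPKM and then at 10.4, 6.86 and 9.44 FPKM. Its groups did not overlap, but it did not pass (log2 -0.61, limma, adjusted p = 0.0962). Parp14 and Parp9, of the ADP-ribosyltransferase family, had log2 changes of 0.29 and 0.18. Trim25, the ubiquitin ligase that activates RIG-I, was at 0.15, Rtp4 at 0.02 and Ifi35 at -0.36.

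Transcripts of interferons themselves were nearly absent from the table. Of 9 ligand genes 5 were listed at 0 in every library, among them Ifna1 and Ifng, and none was tested. Of the other 4, Ifnk was above 0 in 2 libraries, at 1.72 and 0.584 FPKM in pre-treatment tumours 1 and 3. Ifnb1 was at 0.302 FPKM in pre-treatment tumour 2, Ifnl3 at 0.495 FPKM in on-BRAFi tumour 1 and Ifne at 0.833 FPKM in on-BRAFi tumour 3, each listed at 0 elsewhere.

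Of the listed receptor and signalling genes of the pathway 10 were tested and none passed. Jak1 was at 42.3 ± 5.76 and 46.3 ± 11.7 FPKM, and Ifngr1, a chain of the type II receptor, at 23.7 ± 1.65 and 31.0 ± 3.94 FPKM (SD, n = 3).

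A list of genes for sensing upstream of interferon, its relay or its limits had 13 tested. Of these, 2 rose and 1 fell, beside 8.76% and 10.3% of all genes tested. Ticam1, the adaptor of TLR3, rose from 3.77 ± 0.959 to 7.26 ± 0.940 FPKM (limma, adjusted p = 0.0407), and Ikbke, a kinase that activates IRF3, rose from 3.54 ± 0.632 to 6.24 ± 0.439 FPKM (limma, adjusted p = 0.0472). Zbp1, a sensor of left-handed nucleic acid, fell from 13.5 ± 4.36 to 5.45 ± 1.69 FPKM (limma, adjusted p = 0.0305). The Ticam1 call was kept among the single-tumour omissions only without pre-treatment tumour 1, the Zbp1 call only without on-BRAFi tumour 2, and the Ikbke call in none (limma, adjusted p up to 0.135, 0.0978 and 0.121). Zbp1 also missed the threshold with an equal total per library (limma, adjusted p = 0.190). A list made for genes that restrain the response had 7 tested, among them Isg20, an effector rather than a restraint. Of these 7, Pias1, a SUMO ligase that dampens interferon signalling, rose from 11.3 ± 0.752 to 25.5 ± 5.95 FPKM (limma, adjusted p = 0.0152). It did not pass without on-BRAFi tumour 1 or 2 (limma, adjusted p up to 0.0620). Ptpn2 and Ptpn11, phosphatases that act on JAK and STAT signalling, did not pass, with log2 changes of -0.53 and 0.48.

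A further list of 38 interferon-stimulated genes, none of them among the 39, gave 3 higher and 2 lower of 34 tested, and their median log2 fold change was 0.24. Over all genes tested 8.76% were higher, 10.3% lower and 19.1% called either way, with a median of -0.01. Slfn5, of the Schlafen family, rose from 3.48, 3.56 and 3.32 FPKM to 26.1, 23.4 and 10.9 FPKM, a log2 change of 2.41 ± 0.34 (SE; limma, adjusted p = 0.00493). Lgals3bp, a secreted galectin-binding glycoprotein, rose 2.05-fold, from 29.2 ± 2.92 to 59.9 ± 7.91 FPKM (limma, adjusted p = 0.00938). Both passed in all 17 alternatives. Ifi27 rose 1.64-fold and its relative Ifi27l2a fell 2.36-fold, from 87.6 ± 12.9 to 38.7 ± 14.7 FPKM. Each of these calls was kept in only 1 of the 6 fits that left out a tumour, and that of Ifi27l2a was also lost with an equal total per library (limma, adjusted p up to 0.106 for Ifi27 and 0.153 for Ifi27l2a). The chemokine gene Cxcl10 fell 4.37-fold (limma, adjusted p = 0.0138), from 93.7 ± 38.9 to 21.6 ± 9.95 FPKM. It passed whichever tumour was left out, but missed the threshold with an equal total per library (limma, adjusted p = 0.0656) or with the tumour number as a block (limma, adjusted p = 0.0553). In this list too pre-treatment tumour 3 was the highest untreated tumour for 25 of 34 genes (73.5%). B2m, the light chain of MHC class I, was at 848, 794 and 2454 FPKM before treatment and at 1595, 677 and 1760 FPKM on the inhibitor.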

How the data were processed

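The authors deposited 1 table of FPKM, expression scaled by transcript length and mapped fragments, with 1 column per tumour. All 6 columns matched a sample by name. Per the labels' protocols, poly(A) RNA went into unstranded TruSeq libraries, so overlapping and antisense genes share reads. The labels state single-end reads in one place and paired-end in another. Per the submitters' processing notes, mm9, TopHat2, TopHat, Cuffnorm and Cuffdiff were used, without versions or roles. Genes with a mean of at least 1 FPKM over the 6 libraries (12075) were fitted as log2(FPKM + 0.1) with limma 3.58.1 in R 4.3.3 (lmFit, eBayes with a trend, 2 groups, two-sided, Benjamini-Hochberg over all genes tested, threshold 0.05). The fit was tested on simulated data. Fold changes are on that log2 scale and understate low genes. No count model was used. Members, lists and alternatives were chosen with earlier results of these data known. Values per library are given for members past the threshold or an unadjusted p of 0.05, the 8 with the largest changes, the 3 highest and the highest of each role. Of other lists, genes past the threshold and up to 3 of the highest are named. Genes shown beyond the rule are marked where they appear. Alternatives were other pseudocounts, filters, scalings and variance models, a replicate block and each tumour left out.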

Additional observations from a re-analysis of the deposited data

How the results depend on the processing

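Irf1 kept its direction and passed in all 17 alternatives; Ifitm3 passed in 7 and Irf7 in 5. Of the members, 1 fell with the same total, with the same total without short RNAs, with quantile normalization, without a trend and with the tumour number as a replicate block. With array weights 4 fell, Bst2 being the added member, and with the median of ratios 2. With short RNAs left out of the total, 5 members rose (Irf9, Ddx58, Mx1, Gbp3 and Parp14), 4546 genes changed in all (3865 higher, 681 lower) and the members' median was 0.65, against 0.60 with the same total. The same total gave 2042 higher and 520 lower genes, against 1058 and 1249 as deposited. With the block 1237 genes changed. Same-numbered tumours had correlations of their deviations of -0.03, 0.012 and -0.09, and differently numbered ones from -0.087 to 0.115. With 3 tumours per group, such values cannot show whether tumours were paired. The labels do not say that the numbers pair tumours, so they were not taken as pairs. Leaving out each tumour in turn gave 1230 to 1698 changed genes (1230 without on-BRAFi tumour 1, 1509 without pre-treatment tumour 2 and 1524 without on-BRAFi tumour 2), 1 to 2 members that fell, 0 to 1 that rose and a median of -0.030 to 0.23. No fit moved a member past the threshold in the opposite direction. Signs of members that did not pass turned as follows, and the cause was not tested. With the same total the log2 changes were Ifit2 0.048, Isg15 0.078, Ifitm1 0.45, Gbp2 0.029, Gbp5 0.53, Irgm1 0.28 and Ifi35 0.18, and without short RNAs Ifit2 0.099, Isg15 0.13, Ifitm1 0.50, Gbp2 0.081, Gbp5 0.58, Irgm1 0.33 and Ifi35 0.23. With a pseudocount of 1 Ifitm1 was 0.016. With the median of ratios Dhx58 was -0.012 and Rtp4 -0.0028. With quantile normalization Gbp5 was 0.028. With array weights Ifitm1 was 0.17, Gbp5 0.046 and Rtp4 -0.062. Over the fits without a tumour the ranges were -0.19 to 0.22 for Ifit1, -0.11 to 0.26 for Samd9l, -0.76 to 0.75 for Ifitm1, -0.0017 to 0.26 for Ifitm2, -0.036 to 1.03 for Iigp1, -0.11 to 0.19 for Rtp4, -0.081 to 0.41 for Ifih1, -0.057 to 0.055 for Dhx58, -0.18 to 0.20 for Mx2, -0.032 to 0.38 for Parp9, -0.30 to 0.47 for Gbp5, -0.092 to 0.25 for Usp18, -0.17 to 1.498 for Rsad2 and -0.067 to 0.36 for Trim25. The unknown depth limits members near 1 FPKM most.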
